A study of Mus musculus with 7 samples.

Results

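Chemokines are small secreted proteins that direct the movement of leukocytes, and 10 genes encoding chemokine ligands were followed in microglia sorted from inside and outside WT grafts. The genes were Ccl2, Ccl3, Ccl4, Ccl5, Ccl6, Ccl9, Ccl12, Cxcl10, Cxcl16 and Cxcl2, taken by gene name as 10 of the 55341 names in the count table, and 9 of them passed the filter on low counts, as did 15257 genes in all. All 7 libraries came from 5xFAD mice on a C57BL/6 background, aged 14 weeks, which carry mutant human APP and PS1 transgenes driven by the neuron-specific Thy1 promoter and deposit Aβ in the brain. Each host had received embryonic cortical cells of WT mice 4 weeks earlier, and CD11b+CD45low cells were sorted from the graft (inside graft, 3 libraries) or from host cortex outside it (outside graft, 4 libraries). All libraries therefore shared the transgenes, the age and the injection, and there was no group without a graft or without 5xFAD. The sources used here do not say whether each library was a separate mouse, so P values measure the spread between these libraries.

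Chemokines act through G protein-coupled receptors on the target cell, and many ligands share a receptor. In the brain, microglia are a source of several CC ligands, among them Ccl3 and Ccl4, while Cxcl10 is a classical gene of the interferon response. Cxcl16 differs from the others in being made as a transmembrane protein whose extracellular part can be shed by the protease ADAM10.

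Sequencing depth was similar in the 2 groups, with 23241114 to 25882122 counted reads in the inside libraries and 18644807 to 24599193 in the outside libraries. Markers of microglia (10 genes, 0 with a higher mean inside) dominated all libraries. They summed to 47441 to 55107 CPM inside and 54368 to 60334 CPM outside. CPM are read counts scaled to the library total with TMM factors. Neutrophil markers (9 genes, 8 with a higher mean inside) summed to 6511, 648.5 and 13839 CPM in inside graft 1, 2 and 3 and to 0.311 to 297 CPM outside, with S100a8 the most abundant over all libraries. Monocyte markers (8 genes, 7 with a higher mean inside) summed to 689, 90.6 and 1423 CPM in the same inside libraries and to 4.27 to 25.3 CPM outside. No neutrophil or monocyte marker was at 0 in every library. Markers of border-associated macrophages (8 genes, 7 with a higher mean inside) had a median log2 fold change of 2.46 with edgeR over the 7 tested. Some of these had few or no counts in several outside libraries and passed the filter largely through inside libraries, which favours a positive median. The sum of the list, mostly Stab1, was 411 to 656 CPM inside and 538 to 638 CPM outside. Siglec1, named here after its values were seen, was the 1 marker of any list with an adjusted P below 0.05, by voomWithQualityWeights alone. Inside graft 1 and 3 therefore stood apart from inside graft 2 in the neutrophil and monocyte lists. The part of these markers and of those of border-associated macrophages in the chemokine values was not tested, except where a library was left out.

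The ligand genes lie on 2 chromosomes of GRCm38. Ccl2 (chr11:82035571-82037453) and Ccl12 (chr11:82101845-82103400) are on the plus strand, 64391 bases apart, with Ccl7 and Ccl11 between them. Further along the same chromosome are Ccl5 (chr11:83525778-83530518), Ccl9 (chr11:83572919-83578636), Ccl6 (chr11:83587882-83593087) and Ccl3 (chr11:83647844-83649355), all on the minus strand, and Ccl4 (chr11:83662584-83664683) on the plus strand. Ccl9 and Ccl6 are separated by 9245 bases and Ccl3 and Ccl4 by 13228 bases. Cxcl16 (chr11:70453983-70459984, minus strand) lies apart from them, and Cxcl2 (chr5:90903871-90905938, plus strand) and Cxcl10 (chr5:92346638-92348889, minus strand) are on chromosome 5. Reads were counted without strand, and the exons of Cxcl16 and Cxcl10 overlap those of Zmynd15 and Art3 on the opposite strand, so reads of each pair cannot be told apart there. The overlap covered 15.4% of the 75-base stretches of Cxcl16 exons and 2.47% of those of Cxcl10, and the most reads counted on Zmynd15 and Art3 in any library were 618 and 94.

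RefSeq promoter sequence (GRCm38.p6) was at hand for 6 of the 10 genes, Ccl3, Ccl6, Ccl9, Ccl12, Cxcl2 and Cxcl10. The 250 bases before the start site were searched on both strands for a kB motif (GGGA, any 2 bases, T, any base, CC), an interferon-stimulated response element (ISRE, the letters GAAA on either side of any 2 bases) and an AP-1 motif (TGANTCA, N being any base), which 3.33%, 2.98% and 6.75% of 32851 promoters held. Cxcl10 held all 3 kinds, with kB matches 103 to 94 and 159 to 150 bases before the start, an ISRE match at 213 to 204 and an AP-1 match at 74 to 68. Ccl12, Ccl3 and Ccl6 held none of these letters, Ccl9 held an AP-1 match and Cxcl2 held overlapping kB matches on both strands. The promoter of Cxcl10, the ligand with the largest fold change, is shown with its matches in capitals beside that of Ccl12, which has none, at chr5:92348890-92349139 (minus strand) and chr11:82101595-82101844 (plus strand).
Cxcl10: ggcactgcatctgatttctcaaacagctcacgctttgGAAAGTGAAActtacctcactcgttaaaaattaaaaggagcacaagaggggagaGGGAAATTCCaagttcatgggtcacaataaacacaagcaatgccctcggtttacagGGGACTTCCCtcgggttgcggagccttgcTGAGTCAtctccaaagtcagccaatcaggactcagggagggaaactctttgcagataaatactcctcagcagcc
Ccl12: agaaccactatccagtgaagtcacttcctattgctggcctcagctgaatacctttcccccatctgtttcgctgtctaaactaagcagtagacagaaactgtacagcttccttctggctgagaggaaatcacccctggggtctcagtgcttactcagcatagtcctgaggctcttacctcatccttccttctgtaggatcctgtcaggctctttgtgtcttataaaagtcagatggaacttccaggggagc
A match is a run of letters and was not tested for binding.

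The comparison asks how microglia within WT tissue differed in these ligands from those of the surrounding 5xFAD cortex. Cxcl10 had the largest fold change, followed by Ccl5, and Cxcl10, Cxcl16 and Ccl2 were higher in every inside library than in any outside library. None of the 9 ligands tested passed the adjusted P threshold of 0.01 in either test, nor 0.05, with all libraries. In edgeR's quasi-likelihood test 0% of all genes passed 0.01 and 0.0983% passed 0.05, and in limma's voomWithQualityWeights 0.0197% and 0.492% did, the latter with 0.433% higher inside. With no adjustment, 6 of the 9 had a P below 0.05 and a higher inside level by edgeR, against 5.76% of all genes (9.55% in either direction), and 8 by voomWithQualityWeights, against 7.47% (12.2% in either direction). These were bulk libraries, in which fewer cells of a type and less RNA per cell cannot be told apart.

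All 9 fold changes were above 0 in both tests, as were 49.2% of those of all genes with edgeR and 48.3% with voomWithQualityWeights. The median log2 fold change of the 9 ligands was 0.93 with edgeR and 1.12 with voomWithQualityWeights, where the medians of all genes were -0.0064 and -0.0128. Without inside graft 2 the edgeR median was 0.58, and over the libraries left out in turn it ran up to 1.11. The voomWithQualityWeights median was 0.73 without outside graft 3 and up to 1.34 with another library left out. Each of the 9 had more than 10 counts in at least 3 outside libraries, so none passed the filter through its inside level alone. The genes are not independent replicates, and several are neighbours on the chromosome.

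**Figure D1:**
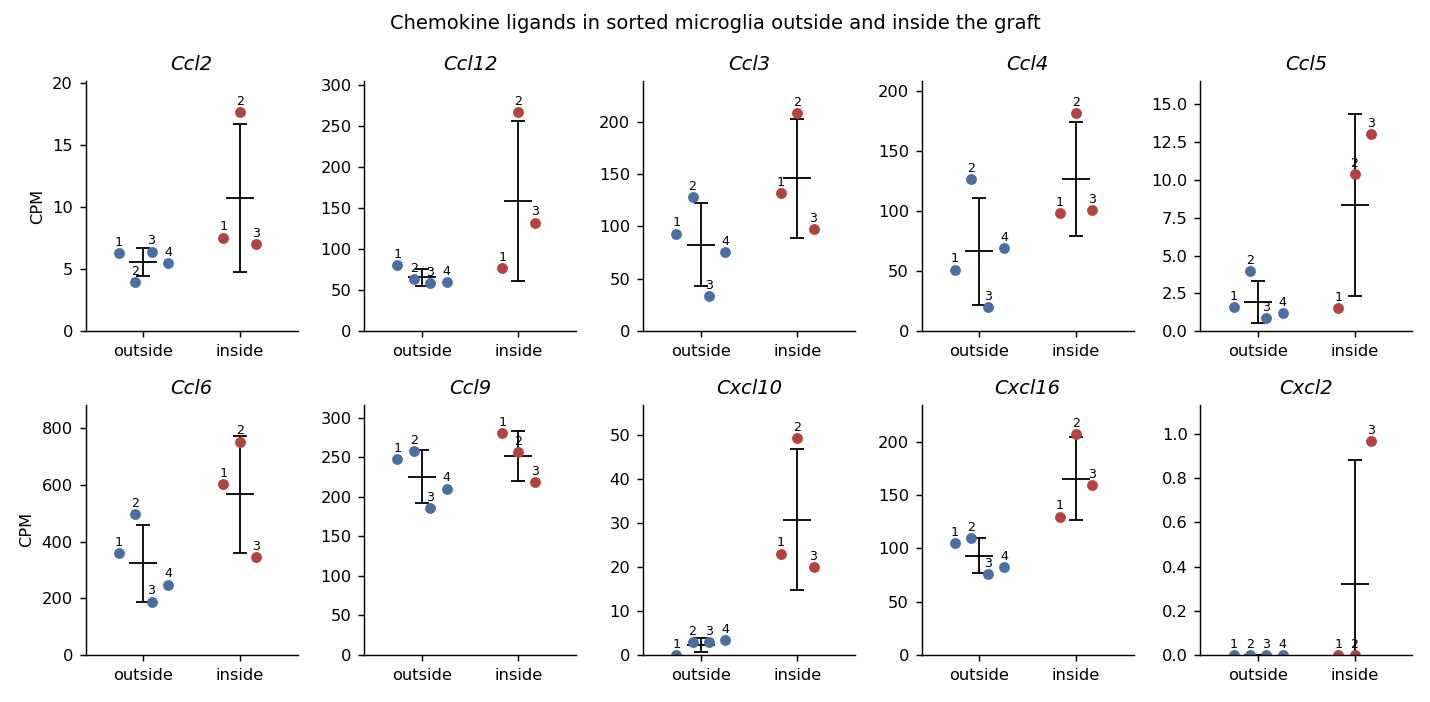
CPM of each ligand outside (blue, 4 libraries) and inside (red, 3 libraries) the graft on linear axes that start at 0, with each point numbered by its library and a black bar for the mean ± SD. Inside graft 2 is the highest point for 7 ligands, and only Ccl2, Cxcl10 and Cxcl16 show no overlap between groups in all libraries.

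Cxcl10, which attracts activated T cells and NK cells through Cxcr3, was at 23.1, 49.3 and 20.1 CPM in inside graft 1, 2 and 3. The outside libraries 1 to 4 were at 0, 2.85, 2.94 and 3.32 CPM, so that the lowest inside level was well above the highest outside level. The count of 0 in outside graft 1 allows a level of up to 0.16 CPM (3 counts), an interval that covers counting error only. The mean was 30.8 ± 16.1 CPM inside (SD, n = 3) and 2.28 ± 1.53 CPM outside (SD, n = 4). The log2 fold change was 3.74 ± 0.77 (SE) with edgeR (adjusted P = 0.0933) and 3.70 ± 0.76 with voomWithQualityWeights (adjusted P = 0.0597, 95% interval of the log2 fold change 2.02 to 5.38). When outside graft 1 was left out, the adjusted P values were 0.04 and 0.0286. They reached 0.253 (edgeR, without inside graft 2) and 0.289 (voomWithQualityWeights, without outside graft 3) when other libraries were left out. Inside graft 2 had the highest Cxcl10 level, and without it the edgeR log2 fold change was 3.23. The Cxcl10 promoter with the ISRE and both kB matches is the one printed above.

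Cxcl16, a transmembrane ligand of Cxcr6, was at 130, 207 and 160 CPM in the 3 inside libraries in the order of their numbers. The outside libraries were at 105, 110, 75.8 and 82.5 CPM, and the groups did not overlap. The means were 165 ± 39.0 CPM (SD, n = 3) and 93.3 ± 16.7 CPM (SD, n = 4), a log2 fold change of 0.83 ± 0.18 with edgeR (adjusted P = 0.116) and 0.89 ± 0.18 with voomWithQualityWeights (adjusted P = 0.0546, interval 0.51 to 1.28). The DESeq2 Wald test gave Cxcl16 an adjusted P of 0.00151 and it was the 1 ligand of 9 that this test called at 0.01, where it called 1.52% of all genes (1.21% as higher inside), and at 0.05, where it called 2.75% (2.1% as higher inside). Without inside graft 2 the edgeR log2 fold change was 0.64. The voomWithQualityWeights adjusted P was 0.0348 without inside graft 1 and 0.299 without outside graft 3. Counts of the overlapping gene Zmynd15 were 452 to 618 inside and 224 to 397 outside, and their part in the Cxcl16 difference was not tested.

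Ccl2 and Ccl12 are ligands of Ccr2, the receptor with which monocytes are drawn into inflamed tissue. Ccl2 was at 7.54, 17.6 and 7.04 CPM inside the graft and at 6.30, 3.96, 6.40 and 5.51 CPM outside it. The groups did not overlap, but inside graft 1 and 3 lay close to the outside range and inside graft 2 stood above all others. For Ccl2 edgeR gave a log2 fold change of 0.95 ± 0.39 (adjusted P = 0.45) and voomWithQualityWeights 0.80 ± 0.35 (adjusted P = 0.391), and without inside graft 2 the edgeR value was 0.40. Ccl12 was at 77.2, 266 and 132 CPM inside and at 80.2, 63.2, 58.4 and 59.8 CPM outside. Here inside graft 1 was within the outside range and the other 2 inside libraries were above it. Ccl12 had a log2 fold change of 1.28 ± 0.33 with edgeR (adjusted P = 0.167) and 1.12 ± 0.33 with voomWithQualityWeights (adjusted P = 0.168, interval 0.40 to 1.85). It was 0.68 with edgeR and 0.71 with voomWithQualityWeights when inside graft 2 was left out. The latter test gave an adjusted P of 0.0253 without inside graft 1 and of 0.518 without outside graft 3. Outside the graft the highest level of Ccl12 was 1.37 times the lowest, close to the 1.39 times of Ccl9.

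Groups were read against the share of all genes with the same pattern. Every inside library was above every outside library for 3 of the 9 ligands, against 5.65% of all genes tested, and below for 0 of 9, against 5.02%. Inside graft 2 was the highest of the 7 libraries for 7 of the 9, against 15.2% of all genes, and outside graft 3 the lowest for 7 of the 9, against 10.3%. The exceptions at the top were Ccl9, highest in inside graft 1, and Ccl5, highest in inside graft 3. The highest outside levels of Ccl3, Ccl4, Ccl5, Ccl6, Ccl9 and Cxcl16 were all in outside graft 2.

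Ccl3 and Ccl4, which attract monocytes and T cells, lie beside each other and had their highest level in inside graft 2 and their lowest in outside graft 3. Ccl3 was at 132, 208 and 97.4 CPM inside and at 93.2, 128, 33.3 and 75.6 CPM outside. Ccl4 was at 97.9, 181 and 101 CPM inside and at 51.1, 126, 20.3 and 68.9 CPM outside. For both genes outside graft 2 was above at least 1 inside library. Within the outside group the highest level was 3.84 times the lowest for Ccl3 and 6.22 times for Ccl4. Ccl3 had a log2 fold change of 0.82 ± 0.38 with edgeR (adjusted P = 0.548) and 1.15 ± 0.39 with voomWithQualityWeights (adjusted P = 0.247). That of Ccl4 was 0.93 ± 0.47 (adjusted P = 0.589) and 1.31 ± 0.48 (adjusted P = 0.288). Both rested in part on single libraries, since without outside graft 3 the voomWithQualityWeights values were 0.52 for Ccl3 and 0.51 for Ccl4, and without inside graft 2 the edgeR values were 0.47 and 0.58. On the scale of CPM per kb of exon, the ratio of Ccl3 to Ccl4 was 0.834 to 1.16 inside and 0.875 to 1.57 outside, so the ranges overlapped.

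Ccl6 and Ccl9 are rodent ligands of Ccr1 and are neighbours in the same cluster. Ccl6 was the most abundant ligand, at 603, 753 and 344 CPM inside and at 359, 496, 188 and 248 CPM outside. Inside graft 3 was below both outside graft 1 and outside graft 2. Ccl6 had log2 fold changes of 0.81 ± 0.33 with edgeR (adjusted P = 0.45) and 1.06 ± 0.31 with voomWithQualityWeights (adjusted P = 0.165, interval 0.38 to 1.74), the latter 0.65 without outside graft 3. Ccl9 was at 281, 256 and 219 CPM inside and at 248, 258, 186 and 210 CPM outside. Its groups overlapped, and it had the smallest fold change of the 9, 0.16 ± 0.14 with edgeR (adjusted P = 0.815) and 0.26 ± 0.13 with voomWithQualityWeights (interval -0.034 to 0.55). With single libraries left out, the Ccl9 values ran from 0.078 without inside graft 1 to 0.25 with edgeR and from 0.11 without outside graft 3 to 0.34 with voomWithQualityWeights. The Ccl9 interval therefore allows at most a log2 difference of 0.55, whereas that of its neighbour Ccl6 reaches 1.74.

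Ccl5, a ligand made by T cells and NK cells among others, was low in all libraries. It was at 1.53, 10.4 and 13.0 CPM inside the graft and at 1.601, 3.96, 0.885 and 1.22 CPM outside. Inside graft 2 and 3 were above the outside range and inside graft 1 was within it. The log2 fold change was 2.12 ± 0.72 with edgeR (adjusted P = 0.33) and 1.88 ± 0.85 with voomWithQualityWeights (adjusted P = 0.409, interval 0.0067 to 3.76). Without inside graft 1 the latter was 3.06 (adjusted P = 0.032), and without outside graft 3 it was 1.29 (adjusted P = 0.78). Markers of T cells and NK cells (11 genes, 5 with a higher mean inside) summed to 2.63, 1.86 and 12.7 CPM inside and to 0.16 to 1.37 CPM outside. Cd3d, Gzma, Gzmb and Ncr1 were at 0 in every library, and Nkg7, the most abundant marker, was at 2.36, 0 and 11.96 CPM in inside graft 1, 2 and 3. Inside graft 2 had no Nkg7 read but 22 reads of Cd3g, 5 of Trac, 4 of Cd8a and 1 of Cd3e, T cell genes that were at 0 in inside graft 1 and 3 and are named here after their values were seen. Every library held reads of this list. The sums of inside graft 1 and 3 were mostly Nkg7 (60 of 67 and 284 of 302 reads). The part of T cells and NK cells in the Ccl5 level was not tested.

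Cxcl2, a ligand of Cxcr2 that attracts neutrophils, was counted in 1 library, with 23 reads (0.97 CPM) in inside graft 3. The other 6 libraries had no Cxcl2 read, which allows at most 0.118 to 0.16 CPM per library, and the gene was not tested. Inside graft 3 was also the library with the highest neutrophil sum, and the part of those cells in the 23 reads was not tested.

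**Figure D2:**
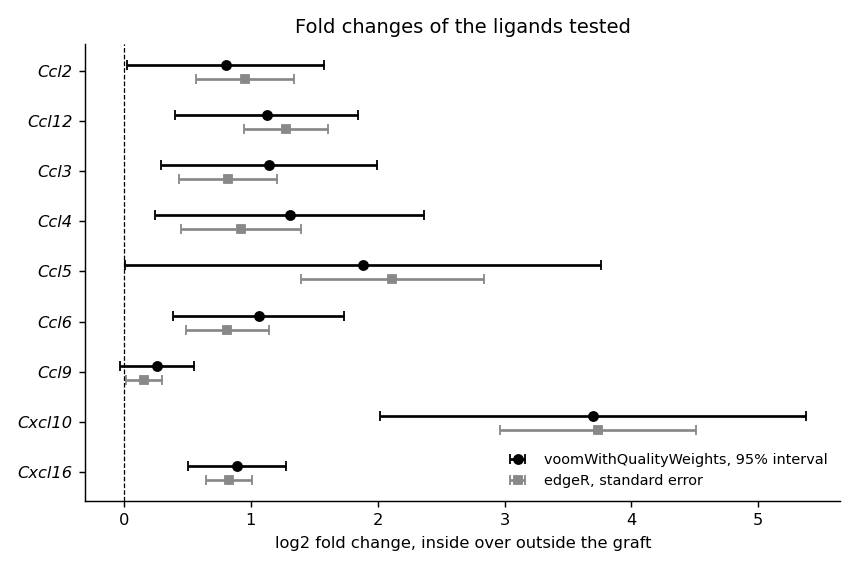
Fold changes (log2, inside relative to outside) of the 9 ligands tested, with voomWithQualityWeights (black circles, 95% interval) and edgeR (grey squares, standard error). All points are above 0, Cxcl10 is the farthest at 3.70 and 3.74, and the interval of Ccl9 includes 0.

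Levels were compared between genes as CPM per kb of exon, which removes the effect of gene length on counts. Inside the graft the order of the means was Ccl6 (316 CPM per kb), Ccl12 (295), Ccl4 (192), Ccl3 (190), Ccl9 (82.7), Cxcl16 (54.8), Cxcl10 (13.7), Ccl2 (9.43), Ccl5 (8.66) and Cxcl2 (0.156). Outside it was Ccl6 (180 CPM per kb), Ccl12 (122), Ccl3 (108), Ccl4 (101), Ccl9 (74.0), Cxcl16 (30.9), Ccl2 (4.87), Ccl5 (2.00) and Cxcl10 (1.01), with Cxcl2 at 0. Cxcl10 thus stood seventh inside and ninth outside. Among the first 4, neighbours in the order overlapped in their ranges in both groups. So did Cxcl10 and Ccl2, and Ccl2 and Ccl5, inside, and Ccl2 and Ccl5, and Ccl5 and Cxcl10, outside. Cxcl16 was separated from its neighbours in both groups, and Ccl9 was separated from Ccl3 inside but not from Ccl4 outside. Using the length of the principal transcript, an alternative chosen after seeing the data, Ccl2 and Ccl5 changed places inside the graft and the rest of the order stayed.

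Summed over the 10 genes, the level was 953, 1663 and 871 CPM per kb inside and 672, 882, 382 and 557 CPM per kb outside, so inside graft 3 was below outside graft 2. Ccl6, Ccl12, Ccl3 and Ccl4 made up most of this sum in every library. Cxcl10 made up 1.14% ± 0.16 of the sum inside (SD, n = 3) and 0.187% ± 0.149 outside (SD, n = 4), and its lowest inside share, 1.02%, was above its highest outside share, 0.341%. Ccl9 made up 7.66% ± 2.35 inside and 12.5% ± 2.63 outside, with 9.66% in inside graft 1 above 9.60% in outside graft 2.

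**Figure D3:**
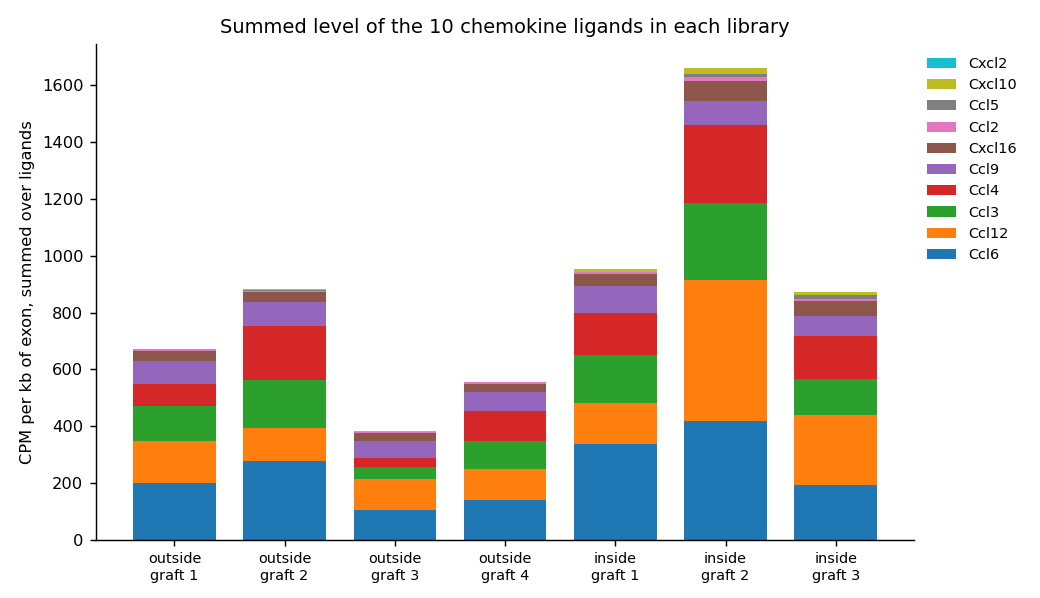
Summed level of the 10 ligands in each library in CPM per kb of exon on a linear axis from 0, with 1 colour for each gene. Inside graft 2 has the tallest bar at 1663, outside graft 3 the shortest at 382, and Ccl6 and Ccl12 form the base of every bar.

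The receptors of these ligands had fold changes on both sides of 0, with 4 of 8 above it. Of 10 receptor genes 8 were tested, 0 passed 0.05 in either test, and their median log2 fold change with edgeR was 0.06. Ccr1, a receptor of Ccl3, Ccl6 and Ccl9, was at 26.4 ± 6.70 CPM inside (SD, n = 3) and 30.3 ± 5.67 CPM outside (SD, n = 4). Ccrl2, an atypical receptor, was at 25.1, 33.9 and 27.4 CPM inside and at 23.7, 22.5, 15.0 and 20.4 CPM outside (edgeR adjusted P = 0.474). It was the 1 receptor of the 8 whose groups did not overlap, against 5.65% of all genes tested higher inside and 5.02% lower. Ccr2, which monocytes carry, was at 31.8, 4.26 and 73.0 CPM inside and at 4.06 to 18.1 CPM outside. Its 3 inside libraries were in the order of the monocyte sum, which was mostly Chil3 (587, 67.6 and 1188.5 CPM inside). Ccl2 and Ccl12 were highest in inside graft 2, and a link with monocytes was not tested. Cxcr2, the neutrophil receptor of Cxcl2, was at 1.96, 0 and 11.5 CPM inside and at 0 to 0.563 CPM outside. Cxcr6, the receptor of Cxcl16, was at 0.549 to 2.78 CPM inside and at 0 to 5.69 CPM outside. Of the 3 proteases that act on chemokines, Adam10 (359 ± 91.7 CPM inside, 368 ± 43.5 CPM outside) and Adam17 (314 ± 36.4 CPM inside, 296 ± 59.8 CPM outside) were tested and neither passed 0.05, and Dpp4 was counted in inside graft 3 alone (2.78 CPM).

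Among the 30 other chemokine ligand genes, 11 were at 0 in every library and 9 were tested, of which 0 passed 0.05 in either test. Their median log2 fold change with edgeR was 1.31. Pf4, Cxcl9, Ccl7 and Cxcl13 had few or no counts in several outside libraries and passed the filter largely through inside libraries. The filter thus favoured a positive median in this list. Pf4, a ligand best known from platelets, was at 9.85, 3.15 and 18.8 CPM inside and at 0.534, 0.0445, 0.121 and 0.972 CPM outside. Its groups did not overlap, with a log2 fold change of 4.65 ± 0.90 (edgeR, adjusted P = 0.0906), and the DESeq2 Wald test called it at 0.01. Cxcl9, which shares Cxcr3 with Cxcl10, was at 10.7, 28.0 and 44.7 CPM inside and at 0, 0, 11.6 and 0 CPM outside (edgeR adjusted P = 0.532). Cxcl11, the further ligand of Cxcr3, named here after its values were seen, was at 0.275, 1.46 and 2.11 CPM inside and at 0 outside, and did not pass the filter. Cxcl9 and Cxcl11 were thus highest in inside graft 3, whereas Cxcl10 was highest in inside graft 2. Ccl7, which lies between Ccl2 and Ccl12, was at 0.314, 2.80 and 6.66 CPM inside and at 0, 0, 2.62 and 0.243 CPM outside. Ccl25 and Cxcl13, the other ligands of this list with a high mean level, were at 9.63 to 16.6 and 0.51 to 20.99 CPM inside and at 9.03 to 26.1 and 0 to 14.1 CPM outside.

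Genes of the interferon response, to which Cxcl10 belongs, were read as a separate list of 12 that holds no ligand. All 12 were tested and 0 passed 0.05 in either test, while 12 of 12 had a fold change above 0 with edgeR and the median log2 fold change was 0.88. Oasl2 was at 77.2, 145 and 104 CPM inside and at 62.8, 30.8, 30.2 and 57.8 CPM outside, with no overlap and a log2 fold change of 1.26 ± 0.30 (edgeR, adjusted P = 0.13). The DESeq2 Wald test called Oasl2 (adjusted P = 0.00152) and Ifit2 (adjusted P = 0.00756) at 0.01, and Irf7 (adjusted P = 0.0259) and Stat2 (adjusted P = 0.0412) at 0.05, all with higher levels inside. Stat2, a transcription factor of this response, was at 100, 188 and 116 CPM inside and at 91.2, 55.4, 74.6 and 93.7 CPM outside (edgeR adjusted P = 0.268). In both genes, as in Cxcl10, inside graft 2 was the highest library. Mx1 and Ifit1, antiviral proteins, had log2 fold changes of 1.20 ± 0.42 and 1.18 ± 0.51 with edgeR (adjusted P = 0.345 and 0.501). The factors Irf9 and Irf1 had log2 fold changes of 0.05 ± 0.15 and 0.18 ± 0.20 with edgeR. Groups did not overlap for 6 of the 12 genes, all higher inside, against the 5.65% given above.

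Genes of NF-kappaB and of inflammatory cytokines, which can induce many chemokines, had fold changes on both sides of 0. Of 13 genes 12 were tested, 0 passed 0.05 in either test, and the median log2 fold change with edgeR was 0.19. Nfkb2, a subunit of this family, was called at 0.05 by the DESeq2 Wald test (adjusted P = 0.043), with 50.6, 60.6 and 47.9 CPM inside and 42.5, 35.8, 33.0 and 36.0 CPM outside. Tnf was at 6.04, 8.92 and 8.30 CPM inside and at 1.39, 6.45, 4.79 and 3.16 CPM outside, where inside graft 1 was within the outside range. Il1b was at 6.28 to 13.5 CPM inside and 1.601 to 11.2 CPM outside. Il6 had a lower mean inside, 8.91 ± 3.92 CPM (SD, n = 3) against 14.1 ± 3.53 CPM outside (SD, n = 4), with a log2 fold change of -0.66 ± 0.36 (edgeR, adjusted P = 0.625). The subunits Rela and Nfkb1 and the cytokine Il1a, the most abundant of the list, had log2 fold changes of -0.13, -0.20 and -0.19 with edgeR.

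**Figure D4:**
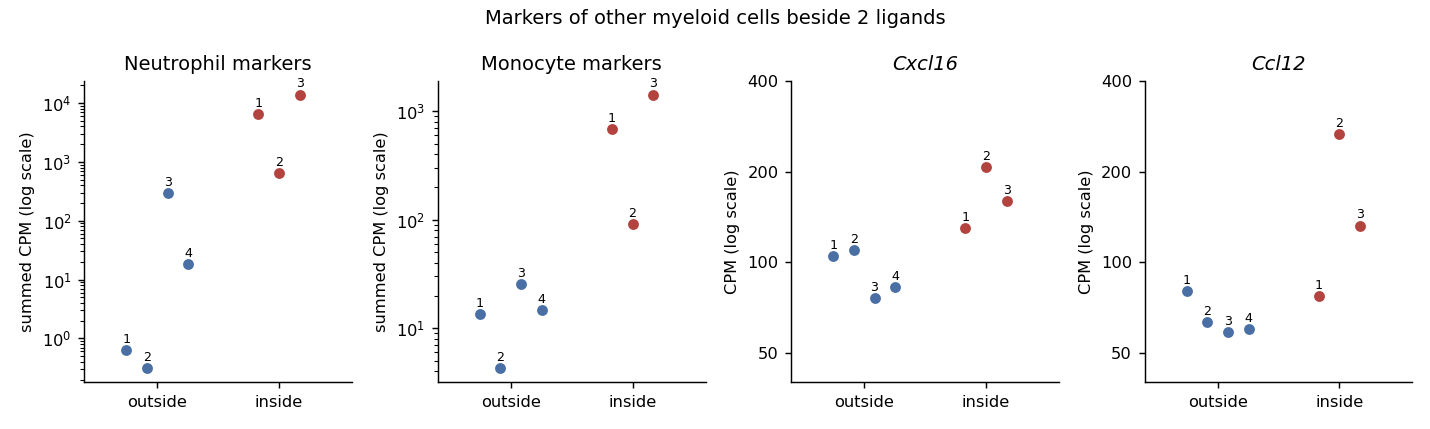
Summed CPM of neutrophil and monocyte markers and CPM of Cxcl16 and Ccl12 in each numbered library on log axes, outside (blue) and inside (red) the graft. Inside graft 2 is the lowest inside library for both marker sums (648.5 and 90.6 CPM) and the highest for Cxcl16 (207 CPM) and Ccl12 (266 CPM).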

How the data were processed

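Bulk RNA-seq libraries of sorted microglia, 3 from inside and 4 from outside the graft, were grouped by the sample labels. Per the labels and file headers, the authors made base calls with bcl2fastq 2.18, aligned reads with STAR 2.7.2a to GRCm38.p6 and counted them per gene name with featureCounts 1.6.2 on GENCODE M21. The deposited values were raw counts without normalization, and the exon length in bases beside them was used as deposited for CPM per kb. Strand was ignored and reads with several alignments were left out, which lowers counts of genes with near-identical copies. Reads carried no molecular identifiers, so counting limits cover counting error only.

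From these counts, genes were kept with filterByExpr by group, scaled with TMM and tested on the whole table with edgeR 4.0.16 (glmQLFit with robust=FALSE and legacy=TRUE, and glmQLFTest) and, as in the study's methods, limma 3.58.1 (voomWithQualityWeights), in R 4.3.3 with Benjamini-Hochberg adjustment. The threshold was 0.01, with 0.05 as an alternative. An edgeR SE is the one implied by the F statistic. DESeq2 1.42.0, other scalings, filters and weights, the replicate number as a block and each library left out were alternatives. No library repeated another, since counting noise was exceeded in each of the 9 within-group pairs (lowest chi-square/df 16.6), and quality weights ran from 0.448 (outside graft 1) to 1.76 (outside graft 4). The scripts were tested on simulated data.

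The ligands, the 6 other gene lists (other ligands, receptors, proteases, NF-kappaB and cytokines, interferon response, immediate early and heat shock genes) and the 11 marker lists were chosen with earlier results of these data known. Every ligand was named, and of each other gene list those with an adjusted P below 0.05 by edgeR or voomWithQualityWeights, the 3 with the largest absolute edgeR fold change and the 3 with the highest mean level. Of marker lists, sums, genes at 0 and the most abundant gene were given, and Cxcl11, Siglec1, the T cell genes and the genes called by DESeq2 alone (Ifit2, Irf7, Nfkb2 and Atf3) were named outside this rule, after their values were seen. The values of 1 receptor and 1 marker are not reported here.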

Additional observations from a re-analysis of the deposited data

Results flagged for a closer look

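Among 53 values tested over the 4 outside libraries, 5 had 1 library far from the other 3 (Dixon's test at the 95% level, which chance alone flags in about 1 of 20 groups, or 2.65 of 53). Cxcl10 was at 0 CPM in outside graft 1 and at 2.85 to 3.32 CPM in the other 3. Cxcl9 was at 11.6 CPM in outside graft 3 and at 0 in the others. Ccl7 was at 2.62 CPM in outside graft 3 and at 0 to 0.243 CPM in the others. Cxcl13, a ligand of B cell follicles, was at 14.1 CPM in outside graft 1 and at 0 to 0.081 CPM in the others. The summed level of neutrophil markers was 297 CPM in outside graft 3 and 0.311 to 18.1 CPM in the others. Outside graft 3 thus had the highest outside levels of Cxcl9, Ccl7 and the neutrophil markers, and the lowest levels of 7 of the 9 ligands tested.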

How the results depend on the processing

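Of 268 refitted fold changes of single ligands, 261 kept their direction and their side of the threshold, 7 newly passed 0.01 and 0 reversed. Against 0 ligands called with edgeR, 3 were called with no filter beyond 1 count (Ccl12, Cxcl10 and Cxcl16), 1 by the DESeq2 Wald test (Cxcl16) and 1 with legacy=FALSE (Cxcl10). Against 0 of all genes called with edgeR, 15 were called at 0.05, 190 with no filter, 20 with at least 10 counts in every library, 232 by DESeq2, 40 with legacy=FALSE and 0 to 1 with each library left out. Against 3 of all genes called by voomWithQualityWeights, 75 were called at 0.05, 1 on library size alone, 41 with no filter, 48 with at least 10 counts in every library, 1 without quality weights and 0 to 33 with each library left out. Leaving out inside graft 2 gave 33 and inside graft 1 gave 11, while 1 gene was left on removal of outside graft 2 or 3 and 0 on removal of outside graft 1 or 4. Cxcl10 could not be fitted with at least 10 counts in every library, since outside graft 1 had 0. The cause of these shifts was not tested.

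With the replicate number as a block and without outside graft 4, which has no partner, edgeR called 5 genes, 0 of them ligands, and voomWithQualityWeights 77, with 2 ligands, Ccl6 (adjusted P = 0.00593) and Cxcl10 (adjusted P = 0.0078). Same-numbered libraries deviated from their group means with correlations of -0.0328, 0.0745 and 0.0617. Inside graft 2 and inside graft 3 each correlated best with the outside library of the same number, and inside graft 1 with outside graft 3 (0.0658). These weak values do not settle whether same-numbered libraries came from the same mouse, which is not known. The main tests used no block. The median ligand fold change ran from 0.58 to 1.11 over the edgeR and DESeq2 alternatives and from 0.73 to 1.34 over those of voomWithQualityWeights, a range added after seeing the data. With 3 and 4 libraries a group, the precision was limited by the spread between libraries, and for Cxcl2 and Ccl5 also by low counts.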

Other observations

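Immediate early and heat shock genes, which can move with tissue dissociation, gave mixed values. Of 12 genes 11 were tested, 0 passed 0.05 in either test, 7 of 11 had a fold change above 0, and the median log2 fold change with edgeR was 0.72. Groups did not overlap for 3 of the 11, all higher inside, against 5.65% of all genes tested. Jun, Junb and Zfp36, the most abundant, were at 152 ± 19.9, 170 ± 30.3 and 161 ± 32.8 CPM inside (SD, n = 3) and at 185 ± 24.3, 177 ± 16.1 and 169 ± 26.5 CPM outside (SD, n = 4). Fos, by contrast, was at 0.589, 1.55 and 8.64 CPM inside and at 0.32 to 1.69 CPM outside, so 1 inside library was above the outside range. Hspa1a and Hspa1b, encoding inducible heat shock proteins that are near-identical copies, were at 1.11 to 3.79 and 1.86 to 7.41 CPM inside and at 0 to 0.445 and 0.283 to 2.19 CPM outside. Atf3, a stress-induced transcription factor, was called at 0.01 by the DESeq2 Wald test (adjusted P = 0.00381) alone of the 3 tests, with 40.5 to 59.5 CPM inside and 17.3 to 32.3 CPM outside.

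Markers of other cells summed to lower levels than those of microglia. B cell markers summed to 28.1 to 39.4 CPM inside and 33.9 to 37.9 CPM outside, with Ms4a1 at 0 in every library and Cd79b the most abundant. Dendritic cell markers summed to 10.0 to 22.6 CPM inside and 4.32 to 11.3 CPM outside. Markers of astrocytes (Gja1 at 0 throughout), neurons, oligodendrocytes and endothelial cells summed to 2.696 to 12.4, 3.19 to 6.07, 65.6 to 76.8 and 19.2 to 25.7 CPM inside and to 1.94 to 6.56, 2.89 to 10.8, 72.6 to 75.7 and 28.1 to 47.0 CPM outside.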
